A study of Mus musculus with 26 samples.

Results

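Mouse Prdm14(-/-) cells with an AGP14 transgene were compared with unmodified embryonic stem cells after 2 days in serum without leukaemia inhibitory factor (LIF). LIF is the cytokine that normally keeps such cells undifferentiated in serum. The transgene is taken here as one that re-expresses Prdm14. The comparison was defined by the array titles and holds 4 of the 26 Affymetrix arrays of the series: 2 of Prdm14(-/-)+AGP14 cells and 2 of Prdm14(+/+) cells. The first group, called AGP14 below, carries the knockout and, per the labels, a pPyCAG-AGP14 transgene, pPyCAG being a vector of the strong, constitutive CAG promoter. The labels call these ESC-like cells. The second group, called WT, is labelled as embryonic stem cells with no genetic modification. Prdm14(-/-) cells without the transgene, called KO and also labelled ESC-like, gave 2 further arrays in the same medium and are used beside them. For each of these lines 2 arrays in serum with LIF at 1000 units per ml serve as a second setting. All lines are C57BL/6 and male, and all grew on mouse embryonic fibroblast feeders in medium with 20% fetal bovine serum. The labels do not say how many clones a line represents, so line, genotype and clone cannot be told apart. Nor do they state whether 2 arrays of a group came from different dishes of cells. The tests below therefore take account of array-to-array spread, some or all of which may be technical.

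Naive pluripotency is the state of the preimplantation epiblast. Nanog, Klf4, Esrrb, Tfcp2l1 and related transcription factors sustain one another in it, and LIF feeds into that network through the receptor Lifr, the shared subunit Il6st (gp130) and the factor STAT3. FGF signalling through ERK moves cells on towards the formative state, which is marked by Pou3f1, Otx2, Fgf5 and the de novo DNA methyltransferases Dnmt3a and Dnmt3b. PRDM14 is a zinc-finger protein of the PR-domain family, expressed in naive cells and in primordial germ cells. It is known to hold down FGF receptor signalling and the de novo methyltransferases, and it acts with the corepressor CBFA2T2 and with polycomb repressive complex 2 (PRC2).

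Each of 18193 genes is represented by its probe set with the highest mean over the 26 arrays. Values are on a scale taken as log2, so that a difference of 1 stands for a 2-fold change. That base is inferred from the highest value of 13.89, since no source used here states it. The 4 arrays had medians of 4.89 to 4.92, 25th percentiles of 3.25 and 75th percentiles of 7.28 to 7.37, and 397 to 453 of the 45100 probe sets on each were listed at 0. Levels near or below the 25th percentile are called dim below. The median absolute difference between replicates was 0.15 in AGP14 and 0.21 in WT. A gene was called where limma's moderated test, fitted over all 26 arrays, gave a Benjamini-Hochberg adjusted p under 0.05. "Rose", "fell" and "changed" are used only of called genes, and an adjusted p below is from that fit.

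Core pluripotency factors were high in both groups: Pou5f1, Sox2 and Sall4 lay between 11.31 and 12.77 on all 4 arrays. The further stem cell markers Nanog, Zfp42 and Utf1 changed between the groups and are given below. The markers Gata4, Gata6 and Sox17 of primitive endoderm lay between 3.01 and 5.24, and Cdx2 of trophoblast between 2.44 and 3.11. Of the neuroectoderm and mesoderm markers, also given below, Pax6 rose, and Sox1 and Mixl1 were not called. Signal of fibroblast genes was present and unequal between the groups. Whether it came from the feeders or from the stem cells was not tested. The mean log2 signal of 25 fibroblast genes was 7.22 and 7.15 in AGP14, 6.98 and 6.86 in KO, and 6.37 and 6.67 in WT. WT replicate 1 lay below WT replicate 2 in 19 of these 25 genes and in 17 of 21 naive pluripotency genes. Many of the results that turn on WT replicate 1 are therefore given without it as well. Fewer cells of a type and less RNA per cell cannot be told apart in these samples.

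Prdm14 itself did not separate the groups. Its single probe set read 5.12 and 4.86 in AGP14, 3.21 and 4.05 in KO, and 4.28 and 5.17 in WT. The AGP14 arrays lay within the range of the WT arrays, and both lay above the KO arrays. The difference between AGP14 and WT was 0.27 (SE 0.41, adjusted p = 0.769), and without WT replicate 1 it was -0.18. AGP14 exceeded KO by 1.36 (adjusted p = 0.0326). In 2i medium, which holds inhibitors of MEK and GSK3, the same probe set averaged 9.21 ± 0.13 in AGP14, 11.29 ± 0.06 in KO and 9.18 ± 0.32 in WT (SD, n = 2 each). A signal that is highest in the knockout goes against its use as a check of the deletion. The sources used here do not say whether the probes lie in the deleted part or in the transgene, so this probe set checks neither label.

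Without LIF, 1941 of 18193 genes were called between AGP14 and WT, which is 10.7% of all genes tested. Of these, 1153 were higher in AGP14 (6.34%) and 788 lower (4.33%), or 1046 and 1017 after quantile normalization. Most differences were modest: 277 genes rose and 177 fell by at least 1 on the log2 scale, and 34 rose and 36 fell by at least 2. The arrays of the groups did not overlap for any of the 1941 genes, which is of little weight since the same held for 52.7% of all genes. The median difference over all genes was 0.00. The count rested on single arrays: it was 751 without AGP14 replicate 1, 673 without AGP14 replicate 2, 462 without WT replicate 1 and 1972 without WT replicate 2. Of 127 called genes examined one by one, 122 came from the lists and the largest changes. The others were chosen after their values were seen, and some fibroblast genes of the 127 are not named in the text. Many of the 127 lost their call when 1 of the 4 arrays was left out, most often when it was WT replicate 1. With only the 4 arrays fitted 50 lost it, with probe sets averaged 37 and without limma's intensity trend 29.

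Many genes of the naive network rose, as did many fibroblast genes, given below (16 of 25 higher, median difference 0.84). Of 21 measured naive pluripotency genes, 14 were higher in AGP14 and none was lower, and the list's median difference was 0.77, against 0.00 for all genes. The mean log2 signal of the list was 9.25 and 9.38 in AGP14, 7.20 and 7.33 in KO, and 8.04 and 8.45 in WT. AGP14 arrays thus lay above, and KO arrays below, both WT arrays. For this and each later list count of AGP14 against WT without LIF, the background was 6.34% of all genes called higher and 4.33% called lower.

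Tfcp2l1, a transcription factor downstream of LIF and STAT3 in stem cells, read 9.24 and 9.53 in AGP14, 6.11 and 6.2 in KO, and 6.32 and 7.60 in WT. Both AGP14 arrays lay well above all others. The rise over WT was 2.42 (SE 0.29, adjusted p = 6.17e-05), or 5.37-fold. It was 1.78 and still called without WT replicate 1 (adjusted p = 0.000969). Its further probe sets gave only 0.18 to 0.51, and averaged over all its probe sets the difference was 1.04 and not called (adjusted p = 0.0687).

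Klf4, a Kruppel-like factor activated by LIF, read 11.34 and 11.49 in AGP14, 8.23 and 8.78 in KO, and 8.49 and 9.73 in WT. The WT arrays lay far apart and WT replicate 1 lay within the KO range. The rise was 2.31 (SE 0.36, adjusted p = 0.000643), and its further probe set gave 2.27. Nanog, a homeobox factor whose excess lets stem cells renew without LIF, read 11.64 and 11.79 in AGP14, 9.55 and 9.90 in KO, and 9.85 and 10.50 in WT. Its rise of 1.54 (SE 0.18, adjusted p = 6.17e-05) amounted to 2.91-fold.

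The orphan nuclear receptors rose together. Nr5a2, which can bind regulatory elements of Pou5f1, read 9.46 and 9.58 in AGP14, 4.67 and 5.50 in KO, and 6.80 and 7.74 in WT. The 3 groups were separate, with KO lowest, and the rise over WT was 2.25 (SE 0.29, adjusted p = 0.000114). One of its 3 further probe sets had the opposite sign, at -0.23. Esrrb, a partner and target of Nanog, rose by 1.70 (adjusted p = 0.000637) and Nr0b1 (Dax1) by 1.75 (adjusted p = 0.000465).

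Tcl1, a coactivator of AKT kinases, read 10.50 and 10.78 in AGP14, 6.33 and 6.98 in KO, and 7.94 and 8.82 in WT. It rose by 2.26 (SE 0.30, adjusted p = 0.00014), again with AGP14 highest and KO lowest. Tbx3, a T-box factor that can maintain renewal downstream of LIF, rose by 1.95, 1 of its 4 further probe sets was at -0.19, and the mean of its probe sets was 1.10 (adjusted p = 0.0461). The junction protein gene Jam2 rose by 1.86, with all 4 further probe sets between 1.15 and 2.62.

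Smaller rises were seen for Ooep (1.45), Fbxo15 (0.77), Klf2 (0.70), Zfp42 (Rex1, 0.56) and Klf5 (0.39), and these were the calls that depended on 1 array. Without WT replicate 1 all 5 of them were lost, leaving 9 of 14 (adjusted p of the lost genes 0.0822 to 0.308). Without AGP14 replicate 2, Klf2, Klf5, Fbxo15 and Ooep were lost (0.0588 to 0.116), without AGP14 replicate 1 Klf5, Fbxo15 and Ooep (0.0579 to 0.173), and without WT replicate 2 only Klf5 (0.0578). Of the 14, 8 stayed called in each of the 11 alternative settings tried.

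Not every naive gene was higher. Dppa3 (Stella) read 10.24 and 10.59 in AGP14, against 10.09 and 9.36 in WT, a difference of 0.69 that did not pass (SE 0.73, adjusted p = 0.639). Dppa5a was near the top of the scale in all 3 lines, at 13.49 and 13.54 in AGP14 and 13.35 and 13.49 in WT. Gbx2, another LIF-responsive factor, overlapped between the groups (difference 0.10, SE 0.38). Pecam1 (-0.28), Pramel6 (-0.43) and Pramel7 (-0.33) had negative differences and Spic a positive one (0.73). None of the 4 was called.

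**Figure D1:**
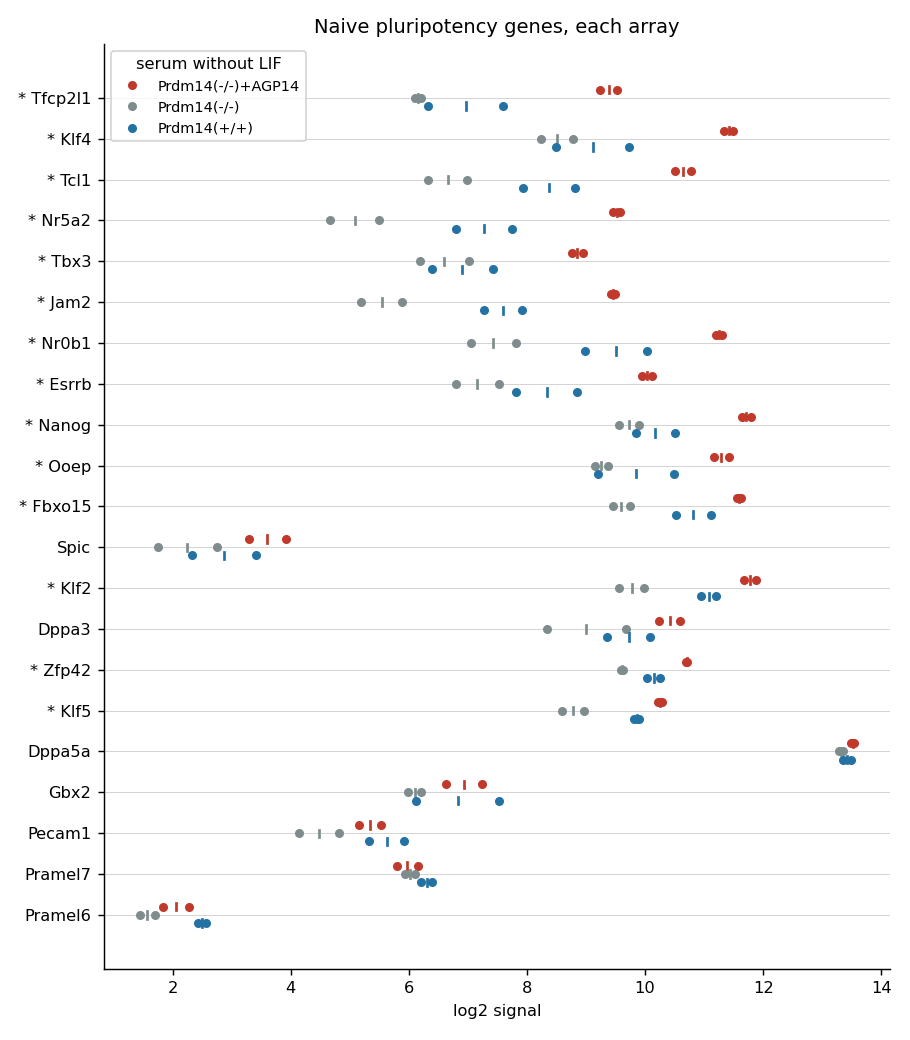
Log2 signal (horizontal axis) of the 21 measured naive pluripotency genes on each of the 2 arrays per line in serum without LIF, with a vertical tick at the mean, ordered by the AGP14 minus WT difference. An asterisk marks the 14 genes called higher in AGP14, in each of which both AGP14 arrays lie to the right of both WT arrays.

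The core factors moved little. Pou5f1 (Oct4) read 12.38 and 12.36 in AGP14 and 12.17 and 12.23 in WT, a rise of 0.17 (adjusted p = 0.0439). Sox2 rose by 0.35 and Sall4 by 0.26, and Utf1, a chromatin-bound factor of stem cells, fell by 0.50. These 4 were the called members of the 11 measured core genes (3 higher, 1 lower, median difference 0.20). The calls were fragile: without WT replicate 1 none was kept (adjusted p 0.0888 to 0.326), without AGP14 replicate 2 none was kept (0.0773 to 0.205), without AGP14 replicate 1 only Utf1 was, and without WT replicate 2 Pou5f1 was lost (0.0551). One of the 2 further probe sets of Utf1 had the opposite sign, at 0.25, and the mean of its probe sets was not called (0.487).

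Genes of the formative state leaned the other way. Of 13 measured, 2 fell and 1 rose, and the median difference was -0.72. Pou3f1 (Oct6), a POU factor of the postimplantation epiblast, read 9.71 and 9.40 in AGP14, 11.34 and 11.64 in KO, and 11.89 and 11.28 in WT. The KO and WT arrays overlapped and the AGP14 arrays lay below them all. The fall was -2.03 (SE 0.43, adjusted p = 0.0061). It was lost without WT replicate 1 (-1.73, adjusted p = 0.106) and without AGP14 replicate 2 (-1.87, 0.0674).

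Pim2, a serine/threonine kinase, showed a larger fall, -3.10 (SE 0.35, adjusted p = 4.23e-05), with 8.03 and 7.65 in AGP14, 10.76 and 10.38 in KO, and 11.33 and 10.56 in WT. Lef1, a transcription factor of the Wnt pathway, rose by 0.56, a call lost without WT replicate 1 (0.151), AGP14 replicate 1 (0.0779) or AGP14 replicate 2 (0.0584). Otx2, which directs the naive-to-formative transition, read 10.76 and 10.83 in AGP14 and 11.60 and 11.43 in WT. Although these arrays did not overlap, the difference of -0.72 did not pass (SE 0.75, adjusted p = 0.634). Fgf5, the ligand used as the standard marker of that state, differed by -0.98 (SE 0.68, adjusted p = 0.424).

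In the LIF pathway, 6 of 15 measured genes rose and 1 fell, with a median difference of 0.44. LIF had been withdrawn from both groups. The receptor gene Lifr read 10.15 and 10.27 in AGP14, 8.80 and 9.29 in KO, and 8.94 and 9.69 in WT, a rise of 0.90 (SE 0.18, adjusted p = 0.00427). The related receptor Osmr, which binds oncostatin M, rose by 0.87. One of the 2 further probe sets of each had the opposite sign (Lifr -0.78, Osmr -0.08), and averaged over probe sets neither was called (adjusted p = 0.439 for Lifr and 0.214 for Osmr). Il6st, the shared signalling subunit, differed by 0.18 (adjusted p = 0.243) and Stat3 by 0.35 (adjusted p = 0.117).

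Among the targets and feedback genes, the AP-1 member Junb read 8.25 and 8.38 in AGP14, 8.06 and 8.02 in KO, and 7.48 and 7.47 in WT. Its rise was 0.84 (SE 0.16, adjusted p = 0.00319) and was called without any 1 of the 4 arrays. The kinases Pim1 (0.44) and Pim3 (0.81) rose, opposite to Pim2. The feedback inhibitor genes went apart: Socs2 rose by 0.73, and Socs3, the principal brake on gp130 signalling, fell by 0.72 on the log2 scale, with 8.62 and 8.45 in AGP14, 8.94 and 9.14 in KO, and 9.05 and 9.46 in WT (SE 0.18, adjusted p = 0.0143).

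Of these 7 calls, 2 remained without WT replicate 1 (lost genes 0.123 to 0.472), 1 without AGP14 replicate 2 (0.0523 to 0.213), 3 without AGP14 replicate 1 (0.105 to 0.136) and 5 without WT replicate 2 (0.106 and 0.123).

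Promoters of the naive and LIF-pathway genes that changed were searched for TTCNNNGAA, the core of a STAT binding motif, which reads the same on both strands. The window was the 250 bases before the transcription start in RefSeq (GRCm38.p6). Of 21 such genes 16 had a promoter in the table and 2 held a match. Among all 32851 promoters 2306 held one (7.02%). The 2 matching promoters are shown because one belongs to a gene that rose, Esrrb, and the other to the gene that fell, Socs3, with the match in capitals. Esrrb lies at chr12:86360867-86361116 on the plus strand, with the first base of the match at -178 from the start. Socs3 lies at chr11:117969367-117969616 on the minus strand, with its match at -154. Of the 14 naive genes that rose, 10 had a promoter in the table and 1, Esrrb, held the match.
Esrrb: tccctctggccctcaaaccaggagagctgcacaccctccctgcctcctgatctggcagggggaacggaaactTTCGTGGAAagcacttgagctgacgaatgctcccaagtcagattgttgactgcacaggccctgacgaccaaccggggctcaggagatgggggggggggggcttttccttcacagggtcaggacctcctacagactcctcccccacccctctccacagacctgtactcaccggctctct
Socs3: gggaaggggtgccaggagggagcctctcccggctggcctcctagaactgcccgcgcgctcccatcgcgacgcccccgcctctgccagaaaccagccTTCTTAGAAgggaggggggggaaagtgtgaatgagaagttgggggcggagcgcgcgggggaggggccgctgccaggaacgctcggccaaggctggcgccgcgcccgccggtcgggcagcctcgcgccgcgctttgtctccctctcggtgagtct

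None of 11 measured FGF ligand and receptor genes was called (median difference 0.17). Of 17 genes that respond to ERK or damp it, 3 rose and none fell (median 0.12), all of them inhibitors of the receptor tyrosine kinase pathway. Spry2 read 11.48 and 11.48 in AGP14, 11.44 and 11.47 in KO, and 10.89 and 11.03 in WT, a rise of 0.52 (SE 0.10, adjusted p = 0.00283) in which AGP14 and KO did not differ detectably (0.02, adjusted p = 0.922). Spry4 (1.18) and Spred1 (0.44) rose as well. Without WT replicate 1 all 3 calls were lost (Spry2 0.0621, Spry4 0.488, Spred1 0.394), and without either AGP14 array Spry4 and Spred1 were. Averaged over probe sets none of the 3 was called (0.0533 to 0.165). Other ERK-responsive genes were not called, and ERK activity itself was not measured. The phosphatase gene Dusp6 differed by -0.01 (SE 0.11, adjusted p = 0.974) and the ETS factor gene Etv4 by 0.00 (adjusted p = 0.997). Etv5 differed by -0.18 (adjusted p = 0.504) and the immediate early gene Egr1 by 0.42 (SE 0.30, adjusted p = 0.451).

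Among 20 genes of Prdm14 partners and polycomb complexes, 7 rose and 2 fell (median 0.11). Runx1t1, a paralogue of the partner gene Cbfa2t2, read 8.81 and 9.24 in AGP14, 6.83 and 6.71 in KO, and 6.14 and 7.10 in WT. The rise was 2.40 (SE 0.24, adjusted p = 1.15e-05), and KO and WT overlapped. Cbfa2t2 read 10.00 and 10.02 in AGP14, 9.01 and 9.15 in KO, and 9.35 and 9.58 in WT, a rise of 0.55 (SE 0.08, adjusted p = 0.000541). One of its 2 further probe sets was at -0.31, and the mean of its probe sets was not called (adjusted p = 0.409).

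Of PRC2, the embryonic ectoderm development gene Eed rose by 0.52 and the methyltransferase gene Ezh2 by 0.20, whereas the histone-binding subunit gene Rbbp7 fell by 0.40. Of PRC1, the recruiting demethylase gene Kdm2b rose by 0.99, and the ubiquitin ligase genes Ring1 and Rnf2 by 0.72 and 0.24. The chromobox gene Cbx2 fell by 0.77. Kdm2b, Eed and Rbbp7 were called without any 1 of the 4 arrays, but averaged over probe sets Eed was at 0.27 and not called (0.305), nor were Rnf2 (0.438) and Cbx2 (0.533). Ezh2, Ring1, Rnf2 and Cbx2 lost their call without WT replicate 1 (0.139 to 0.403) and without AGP14 replicate 2 (0.106 to 0.227), Ezh2, Ring1 and Cbx2 without AGP14 replicate 1 (0.0594 to 0.192), and Ezh2 without WT replicate 2 (0.0543).

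The de novo DNA methyltransferase genes lay lower in AGP14 without passing the test. Dnmt3b read 12.42 and 12.30 in AGP14, 13.20 and 13.12 in KO, and 13.16 and 13.05 in WT. The AGP14 arrays lay below the other 4, and the difference from WT was -0.75 (SE 0.25, adjusted p = 0.0661). Dnmt3a read 10.32 and 10.19 in AGP14, 10.88 and 10.88 in KO, and 11.51 and 11.03 in WT (difference -1.01, SE 0.36, adjusted p = 0.0825). Their cofactor gene Dnmt3l differed by 0.05 (adjusted p = 0.908).

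On the maintenance side, Uhrf1, which brings DNMT1 to replicated DNA, rose by 0.32 (adjusted p = 0.0451), the single call among 5 methylation genes (median 0.05). Leaving out any single array of the 4 ended the call (0.0794 to 0.279). Of 7 demethylation genes 2 rose (median 0.37), both 5-methylcytosine dioxygenases. Tet1 read 11.45 and 11.34 in AGP14, 10.43 and 10.36 in KO, and 10.88 and 10.91 in WT, a rise of 0.50 (SE 0.07, adjusted p = 0.000249), with 1 of 3 further probe sets at -0.42. The mean of its probe sets was 0.28 and not called (adjusted p = 0.148). Tet2 read 8.89 and 8.90 in AGP14, 7.13 and 7.24 in KO, and 7.14 and 8.12 in WT, a rise of 1.26 (adjusted p = 0.00372) that was 0.78 and not called without WT replicate 1 (adjusted p = 0.112).

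Of 9 primordial germ cell genes, 5 rose and none fell (median 0.69). Tfap2c (AP-2 gamma), a factor of germ cell specification that naive cells also express, read 10.08 and 10.40 in AGP14, 7.69 and 8.17 in KO, and 8.74 and 8.93 in WT. The 3 groups were separate, and the rise was 1.41 (SE 0.23, adjusted p = 0.000968). The stem cell factor receptor gene Kit (1.28), the alkaline phosphatase gene Alpl (1.04), Ifitm3 (0.91) and Ifitm1 (0.45) also rose. Prdm1 (Blimp1), the paralogue that founds the germ line, differed by 0.64 without passing (SE 0.36, adjusted p = 0.303). Ifitm1 and Ifitm3 lost their calls without WT replicate 1 (0.216 and 0.145) and without AGP14 replicate 2 (0.262 and 0.0802), Ifitm3 without AGP14 replicate 1 (0.062) and Ifitm1 without WT replicate 2 (0.0605).

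Of 20 germline genes that promoter methylation silences in the body, none rose and 2 fell (median -0.30). Ccnb1ip1 (Hei10), a ubiquitin ligase gene of meiotic crossing over, read 5.0 and 4.72 in AGP14, 3.67 and 4.33 in KO, and 7.77 and 8.09 in WT, a fall of -3.07 (SE 0.20, adjusted p = 1.33e-07). Tex19.1, a gene of stem cells and germ cells, fell by 1.38, a call lost without WT replicate 1 (-1.01, adjusted p = 0.272), AGP14 replicate 1 (0.0771) or AGP14 replicate 2 (0.131).

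**Figure D2:**
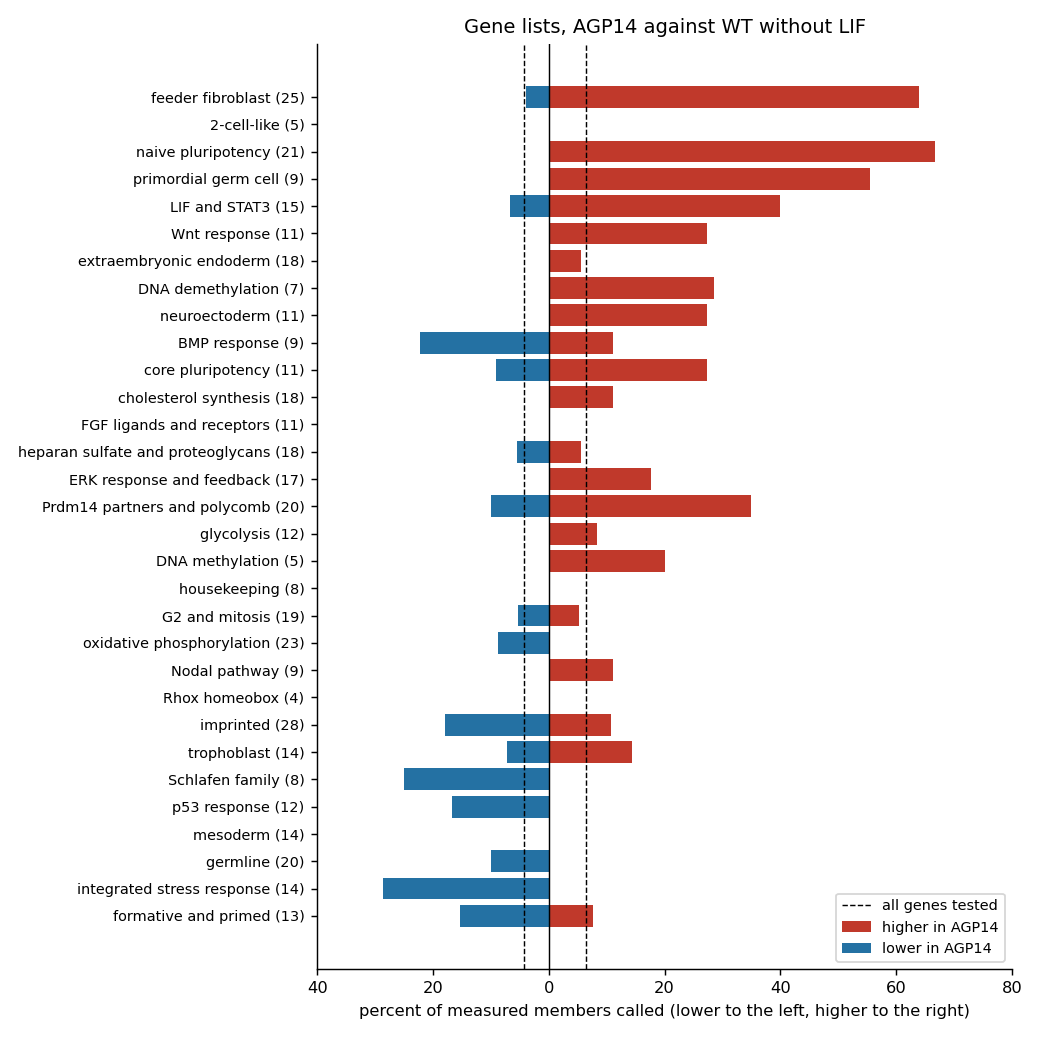
Percent of the measured members of each gene list (horizontal axis, with the number measured in brackets) called higher (red, right) or lower (blue, left) in AGP14 than in WT without LIF, ordered by the list's median difference. Dashed lines mark the 6.34% and 4.33% of all genes called higher and lower, and the naive, feeder and primordial germ cell lists reach farthest to the right.

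The largest changes of all lay outside these lists for the most part. The 12 largest rises and 12 largest falls among called genes were examined, and 7 of these 24 had further probe sets, none of opposite sign. Mymx, whose product fuses myoblasts, read 9.82 and 9.86 in AGP14, 5.14 and 5.37 in KO, and 4.64 and 7.55 in WT. The WT arrays lay far apart and the rise of 3.75 (SE 0.66, adjusted p = 0.00151) was the largest with all arrays. Without WT replicate 1 it was 2.29 (adjusted p = 0.0398), below Mcemp1 (3.25) and 2210409E12Rik (2.57) among others, and with only the 4 arrays fitted it was not called (0.0676). Serpinb6c, a clade B serpin, read 7.92 and 8.02 in AGP14, 0.59 and 1.43 in KO, and 4.30 and 5.51 in WT, a rise of 3.06 over WT, with KO lower than WT by 3.90 (difference -3.90, adjusted p = 0.000348).

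Myo1f, an unconventional myosin gene, read 7.21 and 7.08 in AGP14, 3.48 and 3.67 in KO, and 4.62 and 4.61 in WT (rise 2.53, adjusted p = 0.000168). Mme, which encodes the membrane peptidase neprilysin, rose by 2.85 (adjusted p = 6.17e-05), with 6.93 on both KO arrays against 5.41 and 6.64 in WT. Gli2, an effector of Hedgehog signalling, rose by 2.79, but WT replicate 1 decided its call: without it the difference was 1.75 (adjusted p = 0.102). 2210409E12Rik rose by 2.91 and the glycosyltransferase gene B3galnt1 by 2.63.

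The other 5 rises started from dim signals. Mcemp1 rose by 3.12, Vax2os by 3.10, the adiponectin gene Adipoq by 2.74, the complement factor H-related gene Cfhr3 by 2.72 and Notum, which encodes an inactivator of Wnt proteins, by 2.55. Their WT arrays lay between 0.00 and 3.36. Notum was at 1.48 without WT replicate 2. Without WT replicate 1 the calls of Vax2os (0.158), Adipoq (0.371) and B3galnt1 (0.0709) were lost, without AGP14 replicate 1 those of Adipoq (0.13) and Cfhr3 (0.175), without AGP14 replicate 2 those of Vax2os (0.102), Adipoq (0.144), Cfhr3 (0.152) and B3galnt1 (0.0595), and without WT replicate 2 that of Cfhr3 (0.317).

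The falls included imprinted genes at the top. Nnat (neuronatin), expressed from the paternal allele, read 2.82 and 0.42 in AGP14, 8.0 and 7.21 in KO, and 7.07 and 7.73 in WT. It was clearly measured in KO and WT and dim in AGP14, with a difference of -5.78 (SE 0.69, adjusted p = 6.17e-05). Mest (Peg1), also paternally expressed, read 6.04 and 5.78 in AGP14, 8.87 and 8.03 in KO, and 8.92 and 9.40 in WT (difference -3.25, SE 0.31, adjusted p = 7.58e-06). For both genes the KO arrays did not differ detectably from WT (Nnat 0.20, adjusted p = 0.928, and Mest -0.71, adjusted p = 0.239).

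In all, 5 of 28 imprinted genes fell and 3 rose (median -0.09). Rian, a noncoding RNA gene expressed from the maternal allele, fell by 2.03, Sgce, a neighbour of Peg10, by 1.39 and the paternally expressed Ndn by 0.87. The zinc-finger gene Plagl1 (1.08), the growth factor gene Igf2 (0.73) and Dcn (0.88), which the feeder list also holds, rose. Further probe sets of Rian (2 of 3), Sgce (1 of 1), Plagl1 (1 of 2) and Dcn (1 of 1) had the opposite sign. Averaged over probe sets Sgce was at -0.47 and not called (0.536), nor were Rian (0.0521), Plagl1 (0.584), Igf2 (0.416) and Dcn (0.585). Nnat, Mest and Sgce were called without any 1 of the 4 arrays. Igf2, Rian, Plagl1, Ndn and Dcn lost their calls without WT replicate 1 (0.112 to 0.39), AGP14 replicate 1 (0.0683 to 0.143) or AGP14 replicate 2 (0.0603 to 0.149), and Rian without WT replicate 2 (0.085).

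A further set of falls was low in KO as well as in AGP14. Slfn8, of the Schlafen family of nucleic acid-binding proteins, read 1.82 and 1.78 in AGP14, 0.95 and 1.34 in KO, and 5.76 and 5.98 in WT. The fall of -4.07 (SE 0.33, adjusted p = 9.35e-07) in AGP14 stood beside -4.72 in KO (adjusted p = 1.57e-07). Slfn9 differed from WT by -2.56 in AGP14 (adjusted p = 0.0303, and 0.095 to 0.154 with 1 array left out) and by -2.27 in KO (adjusted p = 0.0886), and these were the 2 falls among 8 measured Schlafen genes (median -0.16). Ccnb1ip1, given above, and Veph1 were also low in both lines. Veph1 was dim at 1.64 and 0.71 in AGP14 and 0.35 and 1.74 in KO, against 5.26 and 2.90 in WT (difference -2.90, adjusted p = 0.0119). Veph1 lost its call without WT replicate 1 (-1.73, 0.275) and without AGP14 replicate 2 (-2.44, 0.123).

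The desmosomal cadherin gene Dsc2, by contrast, was lower in AGP14 than in both other lines, at 2.32 and 1.44, against 6.19 and 5.77 in KO and 5.57 and 4.90 in WT (difference from WT -3.35, SE 0.39, adjusted p = 4.95e-05). The Nogo receptor homologue gene Rtn4rl1 had the same order (difference -2.72). Gzmc, a granzyme gene, was listed at 0 on both AGP14 arrays and read 2.94 and 3.05 in KO and 3.75 and 2.93 in WT, so that no fold is given and the gene was dim or nearly so in all 3 lines. The testis-specific X-linked gene Tsx (-2.91), the selectin gene Sele (-2.84) and the interferon-induced GTPase gene Gbp2 (-2.75) completed the 12 falls. Gzmc and Gbp2 lost their calls without WT replicate 1 (0.0527 and 0.176), and Gbp2 without AGP14 replicate 2 (0.0779).

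**Figure D3:**
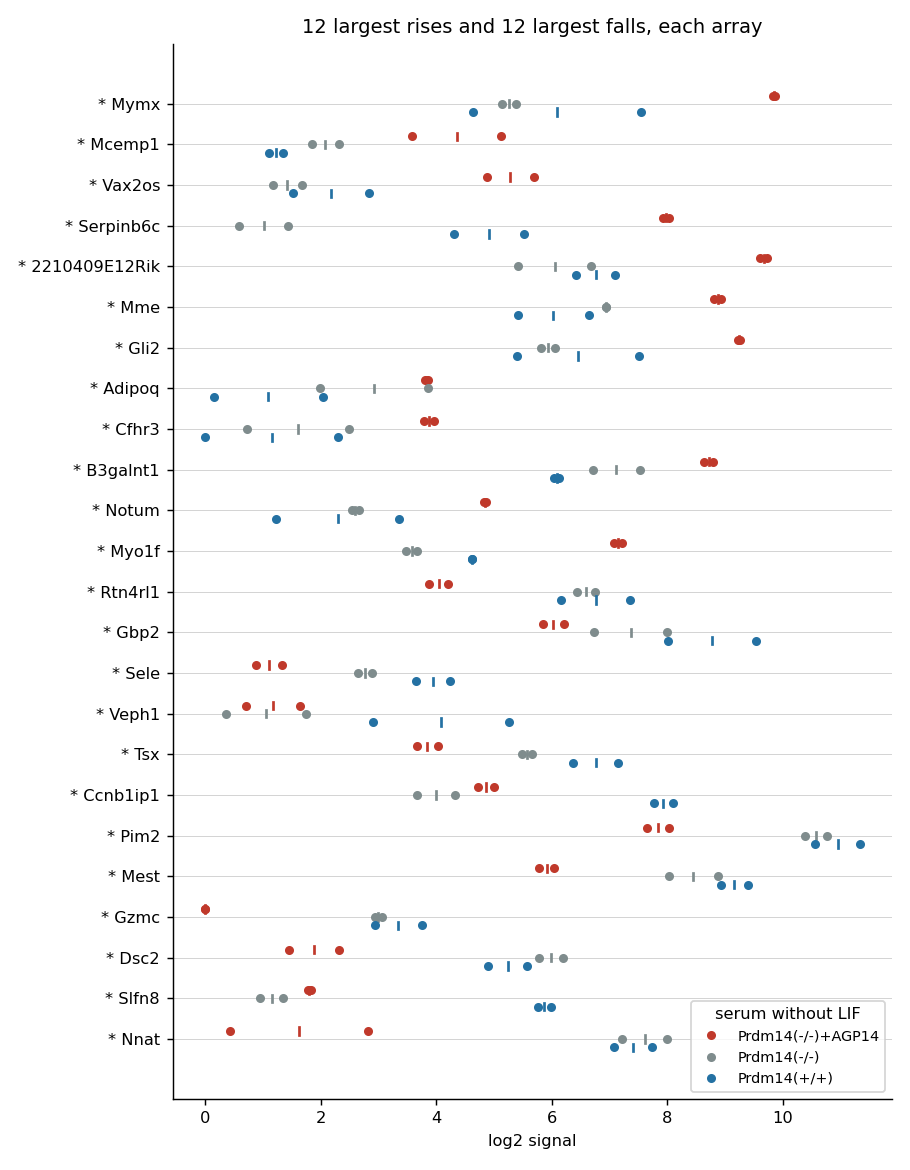
Log2 signal (horizontal axis) on each of the 2 arrays per line without LIF for the 12 largest rises (top) and 12 largest falls (bottom) of AGP14 over WT among called genes, with a vertical tick at the mean. Nnat and Dsc2 are lower in AGP14 than in KO and WT, while Slfn8, Veph1 and Ccnb1ip1 are low in AGP14 and KO.

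Lineage genes changed in small numbers. Of 18 extraembryonic endoderm genes 1 rose, Sox7, at 6.73 and 6.64 in AGP14, 4.19 and 3.85 in KO, and 4.62 and 4.84 in WT (rise 1.96, adjusted p = 0.0104). Its further probe set was at -0.15, the mean of both was not called (0.111), and the call was lost without WT replicate 1 (0.107), AGP14 replicate 1 (0.0723) or AGP14 replicate 2 (0.0646). The list's median was 0.38, and Gata4 (0.79, adjusted p = 0.26), Gata6 (-0.77, adjusted p = 0.176) and Sox17 (-0.09, adjusted p = 0.898) were not called. None of 14 mesoderm genes was called (median -0.28), Mixl1 included (-1.36, adjusted p = 0.185).

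Of 11 neuroectoderm genes 3 rose (median 0.22). The adhesion molecule gene Ncam1 read 6.04 and 6.32 in AGP14, 4.36 and 4.00 in KO, and 3.68 and 3.87 in WT (rise 2.40, SE 0.35, adjusted p = 0.000263; mean of its probe sets 0.73, not called, 0.115). The tubulin gene Tubb3 rose by 1.33. Pax6 rose by 2.26, but 3 of its 4 further probe sets had the opposite sign (-1.09 to 1.26) and the mean of its probe sets was not called (adjusted p = 0.555), nor was Pax6 without WT replicate 1 (0.0513). The neural progenitor markers Sox1 (0.51, adjusted p = 0.67) and Nes (0.22, adjusted p = 0.305) did not pass.

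Of 14 trophoblast genes, Esx1 (1.52) and the TEAD factor gene Tead4 (1.09) rose and the keratin gene Krt18 fell by 1.53 (median -0.11). Averaged over probe sets Tead4 was at 0.67 and not called (adjusted p = 0.477). All 3 calls were lost without WT replicate 1 (0.123 to 0.265) and without AGP14 replicate 2 (0.0971 to 0.244), and those of Krt18 and Esx1 without AGP14 replicate 1 (0.156 and 0.0638) or WT replicate 2 (0.0573 and 0.139). Krt8, the keratin that pairs with Krt18, differed by -1.01 (adjusted p = 0.0525). None of 5 genes of the 2-cell-like state was called (median 0.81), although Zfp352 (-0.21) was 0.98 and called with probe sets averaged (adjusted p = 0.0422), nor any of 4 Rhox genes (median -0.07).

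Inhibitors were among the called genes of the other signalling lists. Smad7, an inhibitor of TGF-beta and BMP receptors, rose by 0.69 (adjusted p = 0.0166), the single call of 9 Nodal pathway genes (median -0.03). Without WT replicate 1 it differed by 0.33 (0.35), and it was not called without AGP14 replicate 1 (0.0928) or 2 (0.0939). Smad6, the BMP-specific inhibitor, rose by 0.82, while the BMP targets Id1 and Msx1 fell by 0.98 and 1.18 (1 higher and 2 lower of 9, median 0.21). All 3 BMP calls were lost without WT replicate 1 (0.268 to 0.509) and without either AGP14 array (0.0503 to 0.248). Of 11 Wnt response genes 3 rose (median 0.39): Lef1, its relative Tcf7l2 (1.00, SE 0.19, adjusted p = 0.00206, and 0.0588 with probe sets averaged) and the cyclin gene Ccnd1 (0.87), whose call was lost without WT replicate 1 (0.328), AGP14 replicate 1 (0.0844) or AGP14 replicate 2 (0.125).

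Heparan sulfate chains on proteoglycans are coreceptors of FGF. Of 18 such genes, the 6-O-sulfotransferase gene Hs6st2 read 7.17 and 6.97 in AGP14, 8.76 and 9.10 in KO, and 8.79 and 8.92 in WT. It fell by 1.78 on the log2 scale (SE 0.17, adjusted p = 7.58e-06), with KO and WT overlapping, and by 1.03 with probe sets averaged. Sulf2, which removes 6-O-sulfates from finished chains, rose by 0.33, a call lost without WT replicate 1 (0.283) or AGP14 replicate 2 (0.117). The median of the 18 was 0.13.

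Housekeeping, cell cycle and metabolic genes were close to balance. None of 8 housekeeping genes was called (median 0.02). Of 19 genes of G2 and mitosis, the kinesin gene Kif23 rose by 0.32 and the topoisomerase gene Top2a fell by 0.37 (median -0.01). Averaged over probe sets neither was called (Kif23 0.36, adjusted p = 0.244, and Top2a -0.25, adjusted p = 0.688). Of 12 glycolysis genes hexokinase 2 (Hk2) rose by 0.48 (median 0.05), and of 23 respiratory chain genes Uqcrc2 and Cyc1, both of complex III, fell by 0.22 each (median -0.03). Of 18 cholesterol synthesis genes Ebp (1.12) and Pmvk (0.54) rose (median 0.17). Of 12 p53 response genes Pmaip1 (Noxa) fell by 0.70 and Ddit4, which encodes an mTORC1 inhibitor, by 0.61 (median -0.17). Ebp and Ddit4 were called without any 1 of the 4 arrays. The others lost their calls without WT replicate 1 (0.0507 to 0.272), without AGP14 replicate 2 (0.0565 to 0.203) and, except Kif23 and Uqcrc2, without AGP14 replicate 1 (0.0654 to 0.141), and Pmaip1 without WT replicate 2 (0.165).

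Of 14 integrated stress response genes, which are induced through ATF4, 4 fell and none rose (median -0.31). Atf5 read 8.18 and 8.20 in AGP14, 8.79 and 8.78 in KO, and 10.29 and 9.41 in WT, a fall of -1.66 (SE 0.23, adjusted p = 0.000249) beside which KO was also lower than WT (-1.06, adjusted p = 0.0132). The others were Slc7a11 (-0.88), Trib3 (-0.69) and Phgdh (-0.38). Without WT replicate 1 only Atf5 remained (0.0561 to 0.407), and without either AGP14 array Trib3 and Slc7a11 were lost (0.0698 to 0.325). Without WT replicate 2 Slc7a11 was lost (0.0539).

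The fibroblast list shifted upwards about as far as the naive list. Of 25 measured genes, 16 were higher in AGP14 and 1 lower, with a median of 0.84. Collagen III (Col3a1) read 9.14 and 9.17 in AGP14, 8.49 and 8.33 in KO, and 7.64 and 8.33 in WT (rise 1.17, SE 0.18, adjusted p = 0.00058). The proteoglycan gene Lum rose by 1.39, S100a4 by 1.35 and the matrix gene Postn by 1.25. Without WT replicate 1 the differences were smaller, at 0.93 for Lum, 0.95 for S100a4 and 0.76 for Postn. With only the 4 arrays fitted, Lum (adjusted p = 0.0695) and Postn (0.103) lost their calls and S100a4 kept its call. Serpinf1, which encodes the secreted factor PEDF, fell by 1.27 (0.84 with probe sets averaged). Thy1 (0.04), Mmp2 (-0.02) and the smooth muscle actin gene Acta2 (0.16) were not called. Both AGP14 arrays lay above both WT arrays in 21 of the 25 genes and in 27.7% of all genes, and no marker of the list was at 0 on any of these arrays.

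The count of fibroblast genes called higher was 5 without WT replicate 1, 8 without AGP14 replicate 1, 11 without AGP14 replicate 2 and 16 without WT replicate 2. It was 6 when only the 4 arrays were fitted and 9 after averaging probe sets. The part of feeder RNA in this unequal fibroblast signal and in the other differences was not tested. As a measured fact, the naive list lay in the order AGP14, WT, KO from high to low, and the fibroblast list in the order AGP14, KO, WT.

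**Figure D4:**
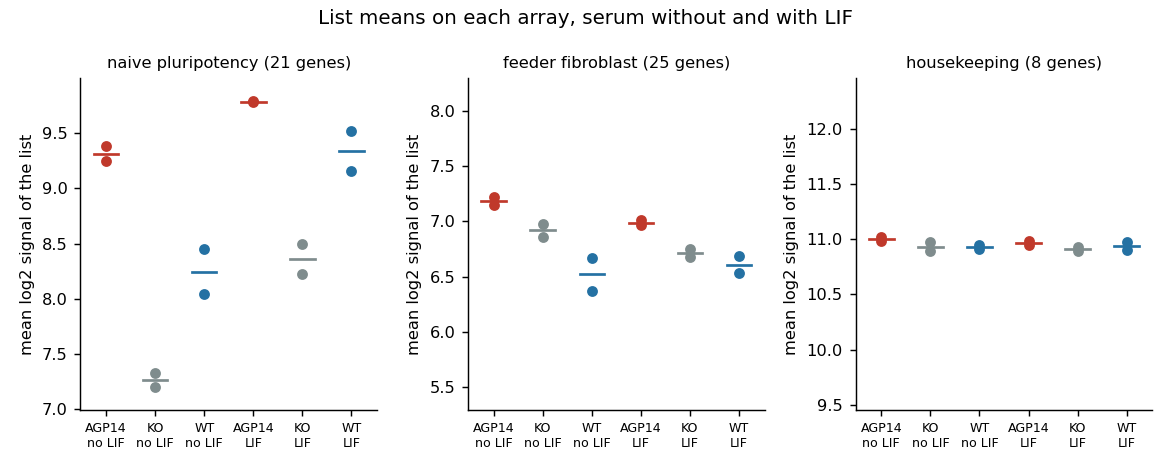
Mean log2 signal (vertical axis, 3 log2 units in each panel) of the naive, feeder fibroblast and housekeeping lists on each array of the AGP14, KO and WT lines without LIF and with LIF, with a bar at the group mean. Without LIF the naive mean is 9.25 and 9.38 in AGP14 against 8.04 and 8.45 in WT, and the fibroblast mean is also highest in AGP14.

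The knockout gives the position of both groups relative to Prdm14(-/-) cells without the transgene. These comparisons share arrays with the one above, so their values are only set side by side. AGP14 against KO without LIF gave 2421 calls (13.3% of genes), 1471 higher (8.09%) and 950 lower (5.22%), or 1253 and 1305 after quantile normalization. KO against WT gave 763 (4.19%), 319 higher (1.75%) and 444 lower (2.44%). Of the 21 naive genes, 17 were higher in AGP14 than in KO and 10 were lower in KO than in WT, with medians of 1.99 and -0.81. Both KO arrays lay below both WT arrays for 10 of the 14 naive genes that rose over WT, and for 23.1% of all genes. The exceptions were Nanog, Klf4, Tbx3 and Ooep. Of the 13 formative genes 5 were lower and 1 higher in AGP14 than in KO, and none was called between KO and WT. The count for AGP14 against KO was 1290 to 1543 when 1 of its arrays was left out, and that for KO against WT was 291 without KO replicate 1, 347 without KO replicate 2, 329 without WT replicate 1 and 594 without WT replicate 2.

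The same genotypes were also compared with LIF present. AGP14 against WT in serum with LIF, on other arrays, gave 1267 calls (6.96%), 428 higher (2.35%) and 839 lower (4.61%), or 619 and 676 after quantile normalization. Of the genes that rose without LIF, 334 rose with LIF as well, which is 29.0% of the 1153 and 78.0% of the 428. Of those that fell, 471 also fell with LIF, which is 59.8% of the 788 and 56.1% of the 839. No gene was called in opposite directions in serum without and with LIF. The count with LIF also rested on single arrays, with 350 and 207 calls without AGP14 replicate 1 and 2 and 153 without WT replicate 1.

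The difference between the 2 differences was tested in its own contrast, and no gene passed. At an unadjusted p under 0.05 it held 904 genes, or 4.97% of all, and the lowest adjusted p among the genes named here was 0.425. Leaving out 1 array gave 0 to 6 calls. No gene is therefore shown here to differ more without LIF than with it. For the naive list the median difference was 0.77 without LIF and 0.46 with LIF, with 14 and 5 genes called higher. The median of the 21 single-gene differences between the settings was 0.61, against 0.06 for all genes, and 10 of the 21 had an unadjusted p under 0.05.

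Jam2 is an example, with 9.49 and 9.42 in AGP14 and 7.27 and 7.91 in WT without LIF, beside 9.94 and 9.94 in AGP14 and 9.40 and 9.57 in WT with LIF. Its difference was 1.86 without LIF and 0.46 with LIF, and the contrast between them was 1.41 (unadjusted p = 0.00423, adjusted p = 0.818). Among the falls, Mest differed by -3.25 without and -3.13 with LIF, and Pou3f1 by -2.03 and -2.04. Nnat (-5.78 and -4.72) and Slfn8 (-4.07 and -4.61) were dim in AGP14 without LIF, so the size of their differences is not compared between the settings.

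The naive genes in AGP14 without LIF can also be set against WT cells that had LIF. For 4 of the 14 that rose, Nanog, Nr5a2, Tcl1 and Ooep, both AGP14 arrays without LIF lay above both WT arrays with LIF, as they did for 25.2% of all genes. For Klf5 both lay below (26.1% of all genes), and for the other 9 the arrays overlapped. The 14 were picked because these AGP14 arrays read high against WT without LIF, so the count of 4 is no evidence. Over all 21 naive genes the mean log2 signal was 9.25 and 9.38 in AGP14 without LIF. It was 9.16 and 9.52 in WT with LIF, so the AGP14 means lay within the WT range. Nanog read 11.64 and 11.79 in AGP14 without LIF and 10.73 and 11.38 in WT with LIF. Between the arrays without and with LIF of a single line, 1 of the 21 naive genes was lower without LIF in AGP14 (Klf5) and 13 were in WT. The background was 0.187% of all genes lower in AGP14 and 1.17% in WT. The median differences, without minus with LIF, were -0.41 in AGP14 and -1.14 in WT, and whether they differ is the contrast in which no gene passed.

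**Figure D5:**
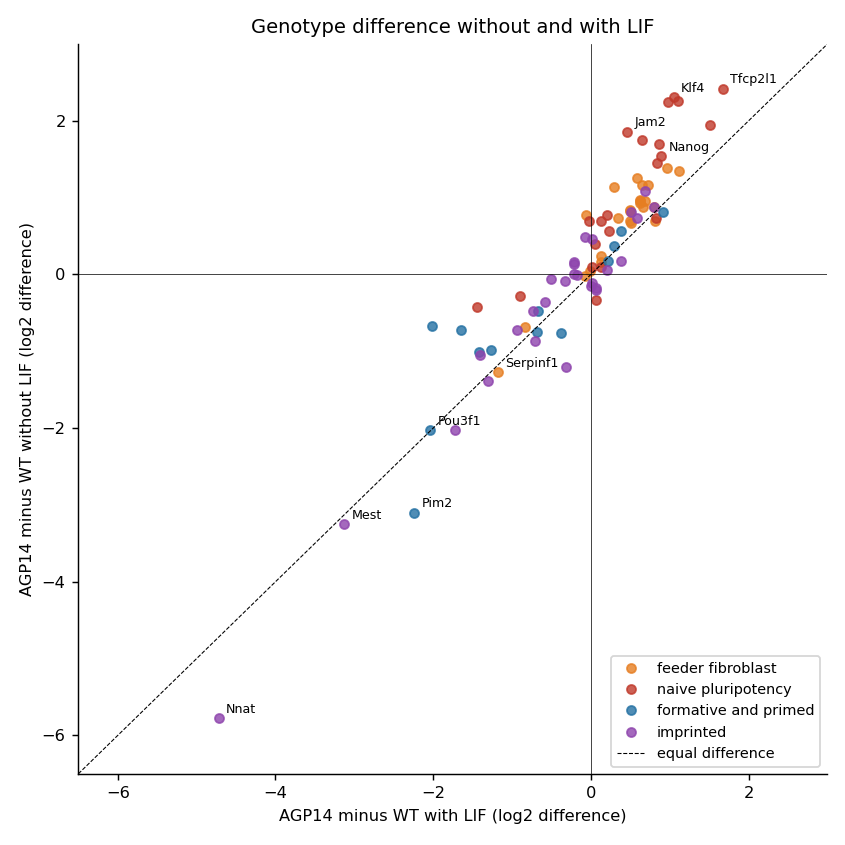
AGP14 minus WT log2 difference without LIF (vertical axis) against that with LIF (horizontal axis) for the measured genes of the naive, feeder fibroblast, formative and imprinted lists, on separate arrays in the 2 settings, with the dashed line at equal differences. Jam2 lies at 1.86 without and 0.46 with LIF, while Mest and Pou3f1 lie close to the line.

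In 2i medium, which per the labels also held LIF, AGP14 against WT gave 1305 genes higher (7.17%) and 3309 lower (18.2%), and the calls did not run one way. None of the 21 naive genes was called higher in 2i and 4 were lower (median difference -0.2). Of the 25 fibroblast genes none was higher and 11 were lower (median -0.45). The median difference over all genes was -0.07. Of the 1153 genes higher without LIF, 134 were higher there (11.6% of the 1153, 10.3% of the 1305) and 295 were lower (25.6% of the 1153, 8.92% of the 3309). Of the 788 lower without LIF, 296 were lower there (37.6% of the 788, 8.95% of the 3309) and 39 were higher (4.95% of the 788, 2.99% of the 1305).

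Calls were also set beside knockout against wild type in the 3 media where no array is shared. With the MEK inhibitor PD0325901 in serum, KO against WT called 338 genes higher (1.86%) and 404 lower (2.22%). Of the 1153 genes higher in AGP14 without LIF, 98 were lower in the KO there (8.50% of the 1153, 24.3% of the 404) and 31 were higher (2.69% and 9.17% of the 338). Of the 788 lower in AGP14, 67 were higher in the KO (8.50% of the 788, 19.8% of the 338) and 20 were lower (2.54% and 4.95% of the 404).

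In serum with LIF, 252 genes were higher (1.39%) and 507 lower (2.79%) in KO than in WT. The rises of AGP14 had 102 genes in common with the falls of KO (8.85% of the 1153, 20.1% of the 507) and 37 with its rises (3.21% and 14.7% of the 252). The falls of AGP14 had 63 in common with the falls of KO (7.99% of the 788, 12.4% of the 507) and 11 with its rises (1.40% and 4.37% of the 252). In 2i, 661 genes were higher (3.63%) and 1004 lower (5.52%) in KO, and the directions were mixed. The rises of AGP14 had 129 genes in common with the falls of KO (11.2% of the 1153, 12.8% of the 1004) and 97 with its rises (8.41% and 14.7% of the 661). The falls of AGP14 had 76 in common with the rises of KO (9.64% of the 788, 11.5% of the 661) and 71 with its falls (9.01% and 7.07% of the 1004).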

How the data were processed

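Affymetrix mouse arrays were hybridised, per the labels' protocols, with biotinylated cRNA made from total RNA by the one-cycle method. The deposited values are log2 signals (base inferred), 1 for each probe set on each array. The step from scans to these values, normalization included, was the authors' own and is not given in the sources. Of 45100 probe sets, 64 were controls and 34944 had 1 gene symbol. Those with several symbols (932) or none (9160) were not used. The 18193 genes, of which 9010 had more than 1 probe set, took the probe set with the highest mean, and 18032 matched RefSeq GRCm38.p6 by gene ID.

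Differences were tested two-sided with limma 3.58.1 in R 4.3.3, with 1 coefficient for each of 13 groups (13 residual degrees of freedom), an intensity trend (prior degrees of freedom 5.05) and Benjamini-Hochberg adjustment over all genes. On simulated data for AGP14 against WT without LIF with 18193 genes, the fit recovered 20 of the 67 genes set to a 1.5-fold change, 38 of the 67 set to 2-fold and 53 of the 66 set to 4-fold, and called 6 unchanged genes. Only these few genes were changed, and the noise was independent and normal at the fitted spread. The rates therefore need not hold for the real arrays. With 2 arrays per group, their number limits the precision. Tables and plots used Python 3.11.15, pandas 2.3.3 and matplotlib 3.10.9.

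The comparison, the 31 gene lists (415 of 456 members measured) and the genes named were chosen with earlier results of these data known, so a list's count is no independent evidence. Examined one by one were Prdm14, called list members and the 12 largest called rises and falls without overlap between arrays. So were the 3 smallest p of a list, and any member of the naive, core, formative, LIF, ERK, DNA methylation and endoderm lists. Not all called list members are named in the text. Alternatives were no intensity trend, only the compared arrays, quantile normalization, the mean of probe sets, genes with a mean under 5 left out, 2 block designs and each array left out.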

Additional observations from a re-analysis of the deposited data

How the results depend on the processing

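Quantile normalization kept each count of genes called within 1.5 times and moved the share of higher calls from 59.4% to 50.7% for AGP14 against WT without LIF, from 60.8% to 49.0% for AGP14 against KO, and from 33.8% to 47.8% for AGP14 against WT with LIF. Fitted on the compared arrays alone, AGP14 against WT without LIF gave 930 calls, with LIF 196, and KO against WT 20, while 6 fibroblast genes were higher. With the mean of probe sets, AGP14 against WT with LIF gave 844, KO against WT 466 and the fibroblast list 9, and Zfp352 turned from -0.21 to 0.98. Without the intensity trend AGP14 against WT with LIF gave 773. Leaving out 1 array gave 462 to 1972 calls for AGP14 against WT without LIF, 153 to 1480 with LIF, 1290 to 1543 for AGP14 against KO, 291 to 594 for KO against WT, 0 to 6 for the contrast of the differences without and with LIF, 9 to 13 naive genes, 5 to 16 fibroblast genes and -0.18 to 0.71 for Prdm14. The cause of these shifts was not tested.

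Of the 127 called genes examined one by one, 39 were called in all 11 alternatives and none turned its direction in any of them. Arrays of the same number share only that number (correlation of their deviations 0.01 between AGP14 and WT without LIF). With the replicate block AGP14 against WT without LIF gave 2371 calls, with LIF 1692, AGP14 against KO 2720, KO against WT 1018 and the contrast of differences 0, with 14 naive and 16 fibroblast genes called and Prdm14 at 0.27 (adjusted p = 0.689). None of the 127 genes lost its call under the replicate block.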

Other observations

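A few interferon-inducible genes were examined after their values, starting from Gbp2, had been seen, so they are no test of a group. Of these, 4 beside Gbp2 were lower in AGP14 and 4 did not pass. Irf1, the transcription factor that drives many of them, read 9.67 and 9.69 in AGP14, 10.50 and 10.72 in KO, and 11.48 and 10.92 in WT, a difference of -1.52 (SE 0.26, adjusted p = 0.00128 by limma) without LIF and -1.77 (adjusted p = 0.000959) with LIF. The immunoproteasome subunit gene Psmb8 read 4.90 and 4.42 in AGP14, 5.78 and 7.17 in KO, and 7.82 and 6.79 in WT (difference -2.65, adjusted p = 0.00636). Its partner Psmb9 differed by -1.27 (adjusted p = 0.000496) and the GTPase gene Gbp3 by -2.22 (adjusted p = 0.0291). The peptide transporter gene Tap1 (-0.90, adjusted p = 0.123), the MHC class I light chain gene B2m (0.23, adjusted p = 0.52) and the type I interferon targets Ifit1 (-0.10, adjusted p = 0.942) and Ifit3 (-0.31, adjusted p = 0.217) did not pass. The embryonic myosin gene Myh3, also chosen after its value was seen, read 5.69 and 5.53 in AGP14, 6.53 and 6.52 in KO, and 8.77 and 7.76 in WT (difference -2.65, adjusted p = 0.0203). For Irf1, Psmb8, Psmb9, Gbp3 and Myh3 no values with 1 array left out are given here. Whether their calls rest on a single array is therefore not shown.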
